A study of Mus musculus with 2 samples.

Results

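Myh3, Myh8, Myh7, Ttn, Neb, Mybpc1, Actc1, Acta1, Ryr1 and Trdn, 10 genes of the contractile apparatus of muscle, were followed through single-cell RNA libraries of embryonic mouse eye cups. They were chosen by symbol and not by their values, and all 10 were found among the 32285 genes counted. The libraries came from E17.5 embryos of 2 genotypes, Myrf humWT/humWT (here the humWT library) and Myrf humdG/humdG (the humdG library). Per the study's methods both alleles carry a humanized last exon of Myrf, the gene of a membrane-bound transcription factor, and humdG adds the C-terminal frameshift variant, so that both groups share the humanized sequence and no unmodified mouse was included. Myrf is altered in the germ line, with no Cre or cell type limit. The labels describe 3 pooled eye cups per library, while the methods describe 3 mice and 6 eyes. The labels' protocol names other mice, Myrf fl/fl and Rx-cre, and removes the cornea, which the methods keep. With 1 library per genotype there was no replicate check, no test between the genotypes was possible, and every interval given is an exact 95% interval for counting error only. A gene was called different when it was past 2-fold.

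A sarcomere is the repeating contractile unit of striated muscle, in which myosin thick filaments slide along actin thin filaments between Z discs. Developing fibres use embryonic (Myh3) and perinatal (Myh8) myosin heavy chains before adult chains replace them, and slow fibres carry Myh7. Cardiac alpha-actin (Actc1) precedes skeletal alpha-actin (Acta1) in skeletal muscle. Muscles that move the eye insert on the sclera, are made by Pax7-positive precursors that turn on Myog as they differentiate, and keep developmental myosins longer than limb muscles.

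With counts scaled to total UMIs, the 2 alpha-actin genes differed in opposite directions between the Myog-led precursors and fibre-like cells. In humdG this held only when a single cell described below was left out. Per cell it held in neither library, with or without that cell, and both genes were higher in the Myog-led cells. In humWT Acta1 had 289 molecular tags (UMIs) in 280 Myog-led cells and 1422 in 1551 fibre-like cells. In humdG it had 828 in 122 Myog-led cells, 731 of them in that single cell, and 184 in 690 fibre-like cells. The 250 bases before the transcription start of each gene are shown, 5′ to 3′ on the transcribed strand. Capitals mark a CArG box (CC, then 6 letters that are each A or T, then GG), the letters known as a serum response factor motif. The sequences are from RefSeq on GRCm38.p6, at chr2:114052876-114053125 (minus strand) for Actc1 and chr8:123894776-123895025 (minus strand) for Acta1.
Actc1: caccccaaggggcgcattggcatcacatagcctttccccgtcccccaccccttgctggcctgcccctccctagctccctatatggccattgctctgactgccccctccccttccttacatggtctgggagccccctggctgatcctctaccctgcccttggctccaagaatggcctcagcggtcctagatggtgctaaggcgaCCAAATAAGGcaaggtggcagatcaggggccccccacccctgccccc
Acta1: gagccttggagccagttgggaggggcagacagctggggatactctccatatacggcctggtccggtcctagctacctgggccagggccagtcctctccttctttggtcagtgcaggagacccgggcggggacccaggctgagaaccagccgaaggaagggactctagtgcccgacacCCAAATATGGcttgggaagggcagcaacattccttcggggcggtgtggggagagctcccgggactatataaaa
The Actc1 window lies inside the gene span given in the next paragraph, because the start in the RefSeq table is downstream of that in the gene model. The box lies 47 to 38 bases before the start given in the table in Actc1 and 73 to 64 bases before it in Acta1. The table held windows for 8 of the members, and none for Neb and Trdn. Among those 8 genes a CArG box was found for these 2 only, and it occurs in 1.47% of the 32851 windows of that length. The other pair shown is Ttn and Myh8, the only 2 of the 8 with a MEF2-type match, which is in capitals. The match is C or T, TA, 4 letters that are each A or T, TA, then A or G, on either strand. It was found in 2.92% of all windows. Levels of Ttn and Myh8 rose and fell together across cell clusters, but so did those of Myh3, which had no such match. The Ttn and Myh8 windows lie at chr2:76982548-76982797 (minus strand) and chr11:67276874-67277123 (plus strand).
Ttn: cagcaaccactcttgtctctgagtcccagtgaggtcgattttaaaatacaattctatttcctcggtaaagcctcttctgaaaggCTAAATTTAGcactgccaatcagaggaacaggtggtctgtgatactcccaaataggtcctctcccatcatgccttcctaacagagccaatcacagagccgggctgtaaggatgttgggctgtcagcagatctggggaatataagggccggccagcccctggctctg
Myh8: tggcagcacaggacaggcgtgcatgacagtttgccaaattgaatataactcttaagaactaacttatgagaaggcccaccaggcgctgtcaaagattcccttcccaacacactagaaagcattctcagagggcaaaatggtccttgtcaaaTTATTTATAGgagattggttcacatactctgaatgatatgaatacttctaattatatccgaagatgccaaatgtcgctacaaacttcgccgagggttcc
Among the 8 members with a window, 6 held an E-box (CANNTG, 66.2% of all windows) and 3 held TATAAA (12.4% of all windows), and the TATAAA of Myh8 overlaps its MEF2-type match. Both strands were searched. These are letter matches in a window and not measured sites.

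The genes lie on 6 chromosomes of GRCm38. Myh3 spans chr11:67078300-67102291 and its neighbour in the myosin cluster, Myh8, chr11:67277124-67308634, whereas Myh7 is at chr14:54970684-54994626. Ttn (chr2:76703980-76982547), Neb (chr2:52136647-52378474) and Actc1 (chr2:114047282-114053548) share chromosome 2, and Mybpc1 (chr10:88518279-88605152) and Trdn (chr10:33080554-33476709) share chromosome 10. Acta1 is at chr8:123891769-123894751 and Ryr1 at chr7:29003344-29125179. From start to end the genes run from 2.98 kb (Acta1) and 6.27 kb (Actc1) to 279 kb (Ttn) and 396 kb (Trdn).

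After the filters 17017 cells of humWT and 19129 of humdG remained, with medians of 3785 and 2574 molecular tags (UMIs) per cell. They fell into 22 clusters, made without the members. One cluster was named muscle fibre-like from troponin, myosin light chain and related genes, and held 1551 humWT cells (9.11%, 8.69 to 9.56) and 690 humdG cells (3.61%, 3.35 to 3.88), at medians of 2975 and 2012 UMIs. With finer clustering (resolution 1.0 in place of 0.5) it held 1554 and 984 cells, so its humdG share depended on the resolution beyond the interval given. A cluster led by Myog and Msc, with Pax7, Myf5 and Myod1, held 280 (1.65%) and 122 (0.638%) cells and was far deeper, at 17392 and 18338 UMIs. It also had 7 raised fibre markers, but precursor genes led it, so it was called by its leading genes. A stricter definition of a fibre, at least 6 of 12 fibre genes and 2% of all UMIs from them, took only 4 humWT and 5 humdG cells, none of them in the fibre-like cluster. The fibre-like cluster therefore carries the fibre pattern only weakly. Within it a core of 277 humWT and 76 humdG cells had UMIs of at least 2 of 6 other muscle genes, among them Ldb3, Myom1 and Cacna1s, none of them a member. None of 5 heart markers reached 20 UMIs in the fibre-like cluster over both libraries, and 2 of them, Nppa and Nkx2-5, had 0 UMIs there. The 2 libraries shared 102 barcodes, none of which lay in a muscle cluster in both libraries. How many lay in a muscle cluster in only 1 library was not counted.

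Most UMIs of the 10 genes lay outside muscle. Together the genes had 123591 UMIs in humWT and 43307 in humdG, of which the fibre-like cluster held 21.9% and 15.03% and the Myog-led cluster 5.10% and 8.28%. By comparison, those clusters held 3.82% and 1.33%, and 4.04% and 2.01%, of all UMIs. At least 1 UMI of a member was found in 95.1% of humWT cells and 66.8% of humdG cells. Ttn, the giant spring of the sarcomere, was detected in 80.8% and 44.5% of cells. In the red blood cell-like cluster, a cell type without sarcomeres, 82.7% of humWT barcodes and 38.6% of humdG barcodes had a Ttn UMI, at median depths of 3985 and 4266 UMIs. Detection of a member in a cell was thus not read as expression.

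Outside muscle the members varied less per barcode than per depth, and they did vary. The 18 clusters described here leave out both muscle clusters and 2 others, led by Ntng2 and by Tnmd, because their member UMIs were high, so the ranges are those of clusters picked as low. Ttn ran from 1.68 to 4.49 UMIs per barcode in humWT (median 2.79) and from 0.452 to 1.89 in humdG (median 0.817), while median depth ran from 2336 to 16637 and from 1659 to 18575 UMIs. On the CPM scale (counts scaled to the same total for each set of cells) the same clusters spanned 9.60-fold and 17.2-fold. Myh3 ran from 0.272 to 0.560 and from 0.0968 to 0.360 UMIs per barcode. Acta1 ran from 0.464 to 1.14 and from 0.101 to 0.630. The highest cluster over the lowest in humdG was 4.17-fold for Ttn, 6.25-fold for Acta1 and 8.64-fold for Mybpc1, and Myh7, Ryr1 and Trdn had a cluster at 0 UMIs. The humdG high ends of Ttn and Myh3 were both in the cartilage-like cluster. Values in muscle are given below beside those of the red blood cell-like cluster, a cell type without sarcomeres, which is not the highest of the 18. Per barcode it was the lowest of the 18 for Acta1 and Myh7 in humWT and for Actc1 in humdG. The highest of them measured 248 and 92.7 CPM for Acta1 in humWT and humdG, and 90.9 and 38.6 CPM for Actc1. For Myh3 it measured 216 and 77.2 CPM, and for Ttn 1206 and 481 CPM.

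**Figure D1:**
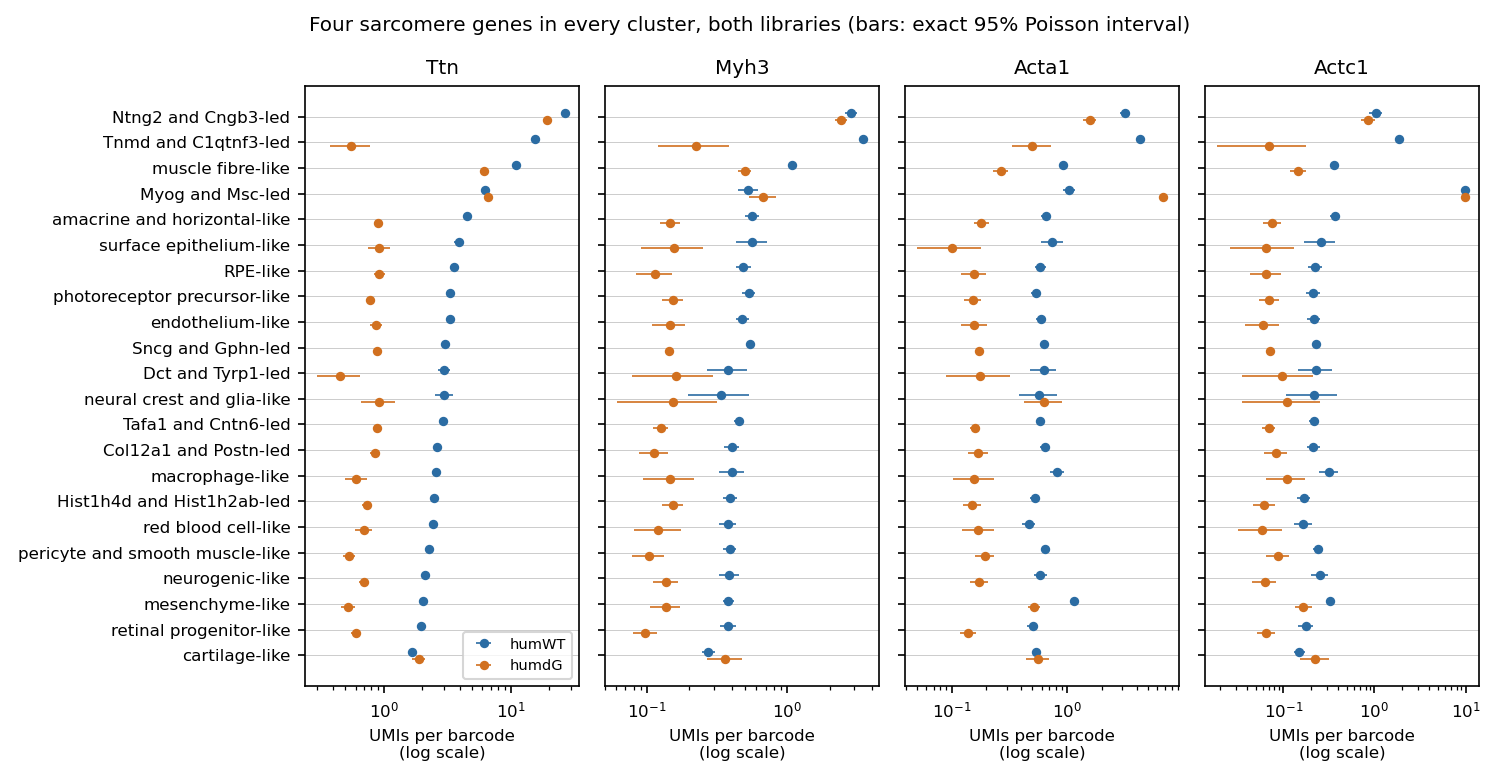
Ttn, Myh3, Acta1 and Actc1 in UMIs per barcode (log scale) for every cluster of the humWT and humdG libraries, with exact 95% Poisson intervals. Ttn reaches 11.0 UMIs per barcode in the humWT fibre-like cluster against 2.44 in red blood cell-like barcodes, and Actc1 reaches 9.76 in the Myog-led cluster against 0.359 in the fibre-like one.

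Each of the 10 genes was higher in the fibre-like cluster than in all other cells by more than 2-fold in both libraries, where 4.95% (humWT) and 7.96% (humdG) of all genes were. The median of the members on the log2 CPM ratio scale was 2.71 and 3.62, beside -0.40 and -0.13 for all genes. Against red blood cell-like barcodes all 10 were also past 2-fold, but so were 71.8% and 87.3% of all genes.

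Among the motor proteins, Myh3 measured 343 CPM (327 to 360) in fibre-like cells of humWT and 228 CPM (204 to 254) in humdG, against 85.5 and 26.2 CPM in red blood cell-like barcodes. Myh8 measured 280 and 192 CPM, against 74.6 and 22.5 CPM. Myh7, the slow and cardiac chain, was the sparsest of the 3, at 38.9 CPM (33.6 to 44.9) and 18.7 CPM (12.4 to 27.1), from 190 and 28 UMIs. Red blood cell-like barcodes held 13 and 1 UMIs of Myh7. In each library all 3 chains were thus above the red blood cell-like level in fibre-like cells.

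The shares of Myh3 and Myh8 among the 3 myosin chains were near each other in fibre-like cells and red blood cell-like barcodes, while Myh7 was a small and less certain part. Myh3 made 51.8% of the UMIs of the 3 chains in fibre-like cells of humWT and 52.0% in humdG, and 51.6% and 52.7% in red blood cell-like barcodes. Myh8 made 42.3% and 43.8% in fibre-like cells, and 45.0% and 45.5% in red blood cell-like barcodes. Myh7 made 5.88% (5.09 to 6.74) and 4.27% (2.85 to 6.11) in fibre-like cells, 3.44% (1.84 to 5.81) and 1.82% (0.0460 to 9.72) in red blood cell-like barcodes, and 8.41% and 19.7% in RPE-like cells, the latter from 26 UMIs. In the core the shares of Myh3 were 54.2% and 48.6%. The shares are of UMIs and give no order of protein or transcript per length.

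Of the proteins that span the sarcomere, Ttn reached 3508 CPM (3456 to 3561) in fibre-like cells of humWT and 2868 CPM (2783 to 2955) in humdG, against 555 and 152 CPM in red blood cell-like barcodes. Cells of the cluster differed widely, with Ttn counts of 1, 5 and 30 UMIs at the 10th, 50th and 90th percentile in humWT and 0, 1 and 19 in humdG. Neb, the ruler along the thin filament, measured 400 and 342 CPM against 64.0 and 18.0 CPM. Mybpc1, the slow form of myosin binding protein C, measured 314 and 290 CPM against 32.5 and 8.12 CPM. In both libraries each of these 3 long genes was raised further above the red blood cell-like level than Acta1 was.

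Acta1 measured 291 CPM (276 to 307) and 123 CPM (106 to 142) in fibre-like cells, against 106 and 37.0 CPM in red blood cell-like barcodes. Actc1 measured 114 and 66.9 CPM, against 37.7 and 12.6 CPM. At the triad, where the surface membrane signals to the calcium store, Ryr1 is the release channel and Trdn anchors its complex. Ryr1 measured 140 and 130 CPM, against 12.7 and 5.41 CPM. Trdn measured 112 and 94.3 CPM, against 10.5 and 3.61 CPM, the latter from 24 and 4 UMIs.

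The enrichment over red blood cell-like barcodes differed between members. It is smaller over the highest cluster outside muscle, whose levels are given above for 4 members. In humWT it was lowest for Acta1 (2.76-fold, 2.40 to 3.17) and Actc1 (3.03-fold), intermediate for Myh3 (4.01-fold, 3.46 to 4.68) and Ttn (6.32-fold, 5.97 to 6.69), and highest for Trdn (10.6-fold) and Ryr1 (11.0-fold, 7.58 to 16.5). In humdG it was again lowest for Acta1 (3.33-fold, 2.36 to 4.79) and Actc1 (5.30-fold), and highest for Mybpc1 (35.8-fold, 18.7 to 78.7). The neighbours Trdn and Ryr1, and Acta1 and Actc1, did not differ beyond their intervals in humWT. Across the 10 genes the enrichment ordered with the span of the gene, with a Spearman rho of 0.685 in humWT and 0.648 in humdG, and of 0.818 and 0.794 for the core. The points share libraries and cells, so this is a description, and the part of gene length in it was not tested. Per barcode in place of CPM the enrichment was smaller, at 1.97-fold (1.72 to 2.27) in humWT and 1.57-fold (1.11 to 2.26) in humdG for Acta1 and 4.52-fold and 8.91-fold for Ttn. Per barcode the fibre-like cluster was below the highest of the 18 clusters for both actins, and above it for Ttn. Acta1 had 1422 UMIs in 1551 fibre-like barcodes of humWT and 184 in 690 of humdG, against 1.14 and 0.630 per barcode in the highest. Actc1 had 557 and 100 UMIs in those barcodes, against 0.370 and 0.223.

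**Figure D2:**
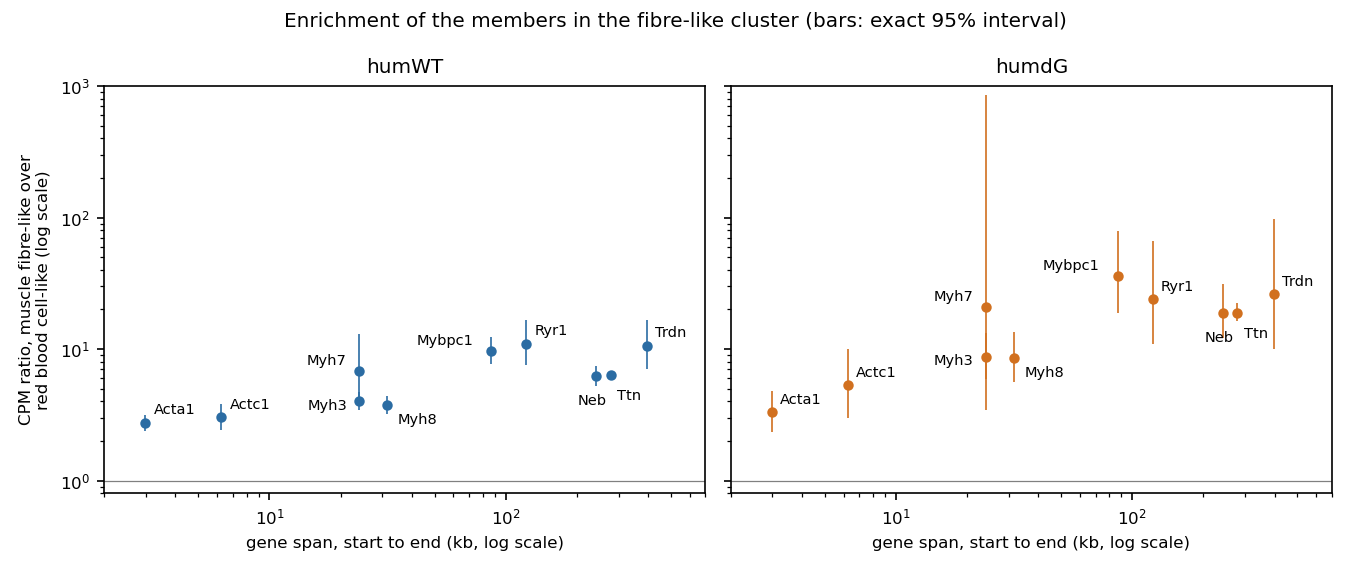
CPM ratio of the fibre-like over the red blood cell-like cluster (log scale) against gene span in kb (log scale) for the 10 genes, 1 panel per library, with exact 95% intervals. The shortest genes, Acta1 and Actc1, sit lowest, at 2.76-fold and 3.03-fold in humWT.

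The core was higher again in the long genes, and less so in the actins. Ttn reached 8768 CPM in humWT and 11849 CPM in humdG, or 28.4 and 28.5 UMIs per cell. Neb reached 991 and 1517 CPM, Mybpc1 862 and 1260 CPM, Ryr1 416 and 548 CPM, and Trdn 281 and 427 CPM. Acta1 reached 371 and 263 CPM and Actc1 171 and 126 CPM. Myh3 measured 647 and 756 CPM and Myh8 468 and 740 CPM. With each cell thinned to 1000 UMIs, Ttn was found in 95.3% and 94.7% of core cells, 77.8% and 56.3% of all fibre-like cells, and 44.5% and 14.3% of red blood cell-like barcodes. Because the core was set by Z disc and triad genes of the same cells, its higher levels are a description.

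Within the core, cells with more Ttn also had more Neb, Mybpc1 and Ryr1, while Trdn, the longest gene, followed Ttn less. On a log2 scale of UMIs per cell depth, Pearson r between Ttn and Neb over cells was 0.65 in humWT (277 cells) and 0.54 in humdG (76 cells), between Ttn and Mybpc1 0.54 and 0.58, and between Myh3 and Myh8 0.19 and 0.16. With Ttn, r was 0.47 and 0.45 for Ryr1, 0.32 and 0.07 for Trdn, and 0.32 and 0.29 for the shorter gene Myh3. The cells of a library share its depth and free RNA.

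In the Myog-led cluster a different member led. Actc1 reached 529 CPM (510 to 550) in humWT and 527 CPM (497 to 557) in humdG, or 9.76 and 9.75 UMIs per cell, and this cluster held 37.7% and 42.7% of all Actc1 UMIs. On the CPM scale Myh3 (28.5 and 36.3 CPM), Ttn (338 and 358 CPM) and Trdn (3.68 and 3.98 CPM) were below their fibre-like levels. Neb (112 and 139 CPM) and Ryr1 (46.3 and 53.1 CPM) were also below those, and above their red blood cell-like levels in both libraries. Per cell the direction turned for Ryr1, at 0.854 and 0.984 UMIs against 0.440 and 0.283 in fibre-like cells. Neb turned too, with 578 UMIs in 280 cells against 1952 in 1551 in humWT. In humdG it had 314 in 122 against 511 in 690. Trdn stayed lower per cell in both libraries. Myh3 and Ttn were lower per cell in humWT, and in humdG only without a single cell described in the next paragraph. That cell held 51 of the 82 Myh3 and 79 of the 810 Ttn UMIs of the 122 humdG cells. The 690 fibre-like cells of humdG had 341 Myh3 and 4288 Ttn UMIs. In this cluster 2 members in humWT and 5 in humdG were past 2-fold over all other cells, where 4.39% and 5.4% of all genes were. With each cell thinned to 1000 UMIs, Actc1 was found in 16.1% and 19.7% of these cells against 4.69% and 1.27% of red blood cell-like barcodes.

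A single humdG cell set several of these values. It had 28466 UMIs, of which 731 were Acta1, or 88.3% of the 828 Acta1 UMIs of its cluster, and the next cell had 19. It also held 95 Actc1, 79 Ttn, 51 Myh3 and 40 Myh8 UMIs, all 12 fibre genes (8.51% of its UMIs) and 2 of 6 precursor genes. Its Scrublet doublet score stood at percentile 8.71 of its library. Without it, humdG Acta1 in the cluster fell from 366 CPM to 43.5 CPM, Myh3 from 36.3 to 13.9 CPM and Myh8 from 23.0 to 5.38 CPM, while Actc1 remained at 491 CPM.

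Ordering the cells of this cluster by Pax7, a marker of muscle precursors, and Myog, a marker of differentiation, separated 3 levels of Actc1. In cells with Pax7 and no Myog UMIs (172 in humWT, 76 in humdG without the cell above), Actc1 measured 43.1 CPM (36.1 to 51.1) and 34.7 CPM. In cells with both (40 and 12) it measured 692 CPM (639 to 748) and 968 CPM (860 to 1087). In cells with Myog alone (38 and 21) it measured 2364 CPM (2260 to 2472) and 2064 CPM (1918 to 2217). Per cell this was 0.779 and 0.632, then 15.95 and 24.0, then 50.9 and 35.5 UMIs, at median depths between 16936 and 22893 UMIs. The intervals of the 3 steps did not overlap in either library.

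Other members moved less along this order. Neb measured 71.1 and 75.2 CPM in cells with Pax7 alone, 118 and 208 CPM with both, and 263 and 268 CPM with Myog alone. Ttn measured 240 and 208, then 431 and 588, then 468 and 611 CPM. Ryr1 measured 35.4 and 36.9, then 53.2 and 57.2, then 79.5 and 105 CPM. Mybpc1 went the other way, at 94.6 and 80.3, then 90.04 and 77.3, then 30.6 and 19.4 CPM. Trdn had 0 UMIs in cells with Myog in either library, with or without Pax7, which in cells with Myog alone allows up to 4.51 CPM in humWT and 10.2 CPM in humdG (exact 95% Poisson interval). Myh3 measured 26.7 and 8.68, then 26.0 and 37.0, then 30.6 and 22.1 CPM and showed no order. These classes are of detected UMIs, and a cell without a Pax7 or Myog UMI may still express the gene.

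**Figure D3:**
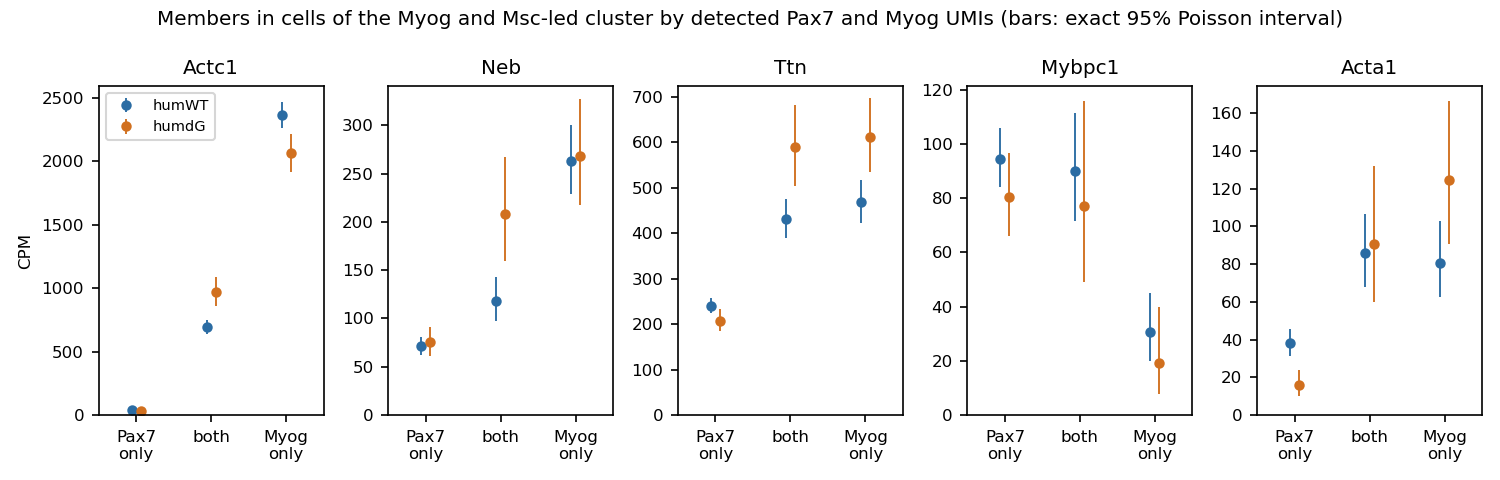
CPM of Actc1, Neb, Ttn, Mybpc1 and Acta1 in cells of the Myog-led cluster grouped by detected Pax7 and Myog UMIs, for both libraries (humdG without the cell rich in Acta1), with exact 95% Poisson intervals and axes from 0. Actc1 climbs from 43.1 to 2364 CPM in humWT, whereas Mybpc1 drops from 94.6 to 30.6 CPM.

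The 2 alpha-actins whose promoters are printed above thus divided the muscle cells. Actc1 made 96.7% (95.8 to 97.4) of alpha-actin UMIs in humWT cells with Myog alone and 94.3% (92.5 to 95.8) in humdG. In cells with both markers it made 89.0% and 91.4%, and in cells with Pax7 alone 53.2% and 68.6%. In the fibre-like cluster it made 28.1% (26.2 to 30.2) and 35.2% (29.7 to 41.1), in the core 31.5% and 32.4%, and in red blood cell-like barcodes 26.3% and 25.5%. The share in fibre-like cells thus had an interval that overlapped that of red blood cell-like barcodes in each library, whereas that in cells with Myog did not.

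**Figure D4:**
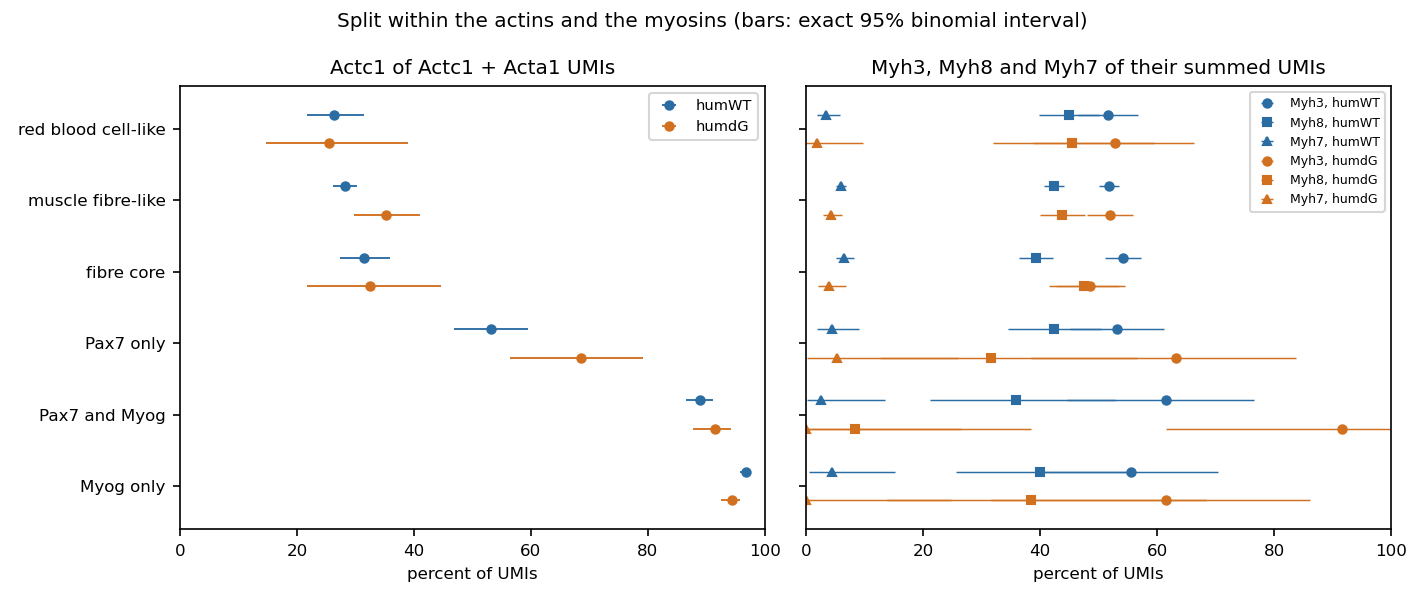
Share of Actc1 in the summed Actc1 and Acta1 UMIs, and shares of Myh3, Myh8 and Myh7 in their sum, by set of cells and library, with exact 95% binomial intervals. Actc1 falls from 96.7% in humWT cells with Myog alone to 28.1% in the fibre-like cluster, while Myh3 stays at 51.8% and 51.6% of the 3 chains in fibre-like and red blood cell-like barcodes.

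Between the genotypes, the humdG library held fewer UMIs of every member over all cells, with log2 CPM ratios of humdG over humWT from -1.13 (Ryr1) to -1.93 (Myh7). It also had a smaller share of muscle cells, and fewer muscle cells and less RNA per cell cannot be told apart in these sums. In red blood cell-like barcodes all 9 members tested were past 2-fold lower, with a median of -1.71, where 16.4% of all genes were lower and 4.4% higher. The level of member UMIs outside muscle thus differed between the libraries, and its part in the ratios below was not tested. With 1 library per genotype, a difference of library and one of genotype cannot be told apart.

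In the fibre-like cluster 2 of 10 members, Acta1 and Myh7, were past 2-fold lower in humdG, where 4.08% of all genes were, and none was higher, where 8.51% were. The log2 ratio was -1.24 (-1.47 to -1.02) for Acta1 and -1.06 (-1.68 to -0.48) for Myh7. It was -0.77 (-1.09 to -0.46) for Actc1, -0.59 (-0.76 to -0.42) for Myh3, -0.55 for Myh8 and -0.29 (-0.34 to -0.24) for Ttn. Mybpc1 had a ratio of -0.12 (-0.27 to 0.04), and that interval includes 0. The median of the members was -0.42, beside 0.27 for all genes.

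The core holds cells picked by detection of muscle genes, at median depths of 3000 in humWT and 2098 UMIs in humdG, and the part of this depth gap in the ratios was not tested. There the median of the members was 0.42, beside 0.28 for all genes, and 0 members were past 2-fold, where 8.03% of all genes were lower and 13% higher. Myh8 (0.66), Neb (0.61), Trdn (0.61), Mybpc1 (0.55), Ttn (0.43) and Ryr1 (0.40) were higher in humdG on the CPM scale, and Myh3 was at 0.23, whereas Acta1 (-0.50) was lower. Actc1 (-0.44) and Myh7 (-0.37) had intervals that include 0, as did that of Myh3. Per cell in place of CPM, Ryr1 (1.35 and 1.32 UMIs), Myh3 (2.09 and 1.82 UMIs) and Ttn each differed by less than counting error, Ttn at 28.4 and 28.5 UMIs, with medians of 23 and 25. Myh8 (1.52 and 1.78 UMIs) and Trdn (0.910 and 1.03 UMIs) also had overlapping intervals per cell. Per-cell values of Neb and Mybpc1 are not given here. Acta1 stayed lower per cell in humdG, and was found in 66.1% of core cells of humWT and 36.8% of humdG. Core cells were 277 of 1551 cells of the cluster in humWT and 76 of 690 in humdG, so the libraries differed in the make-up of the cluster as well.

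In the Myog-led cluster Acta1 was the only one of 9 members tested past 2-fold higher in humdG (2.71), where 1.78% of all genes were, and 0 were lower, where 3.69% were. Without the single cell described above its ratio was -0.36 and 0 members were higher. Then 3 members, Myh8 (-1.93), Trdn (-1.04) and Myh3 (-1.03), were past 2-fold lower, where 3.76% of all genes were, from 12, 4 and 31 UMIs in humdG, and the interval of Trdn includes 0. On the CPM scale these 3 lay below their red blood cell-like levels in both libraries. Myh8 measured 20.5 CPM in humWT and 5.38 CPM in humdG, against 74.6 and 22.5 CPM. Per cell this was 0.379 and 0.0992 UMIs, against 0.328 and 0.104. The part of the level outside muscle in these 3 ratios was not tested. Actc1, the member with the highest CPM in this cluster, was at -0.11, Ttn at -0.04, Neb at 0.14 and Ryr1 at 0.13.

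**Figure D5:**
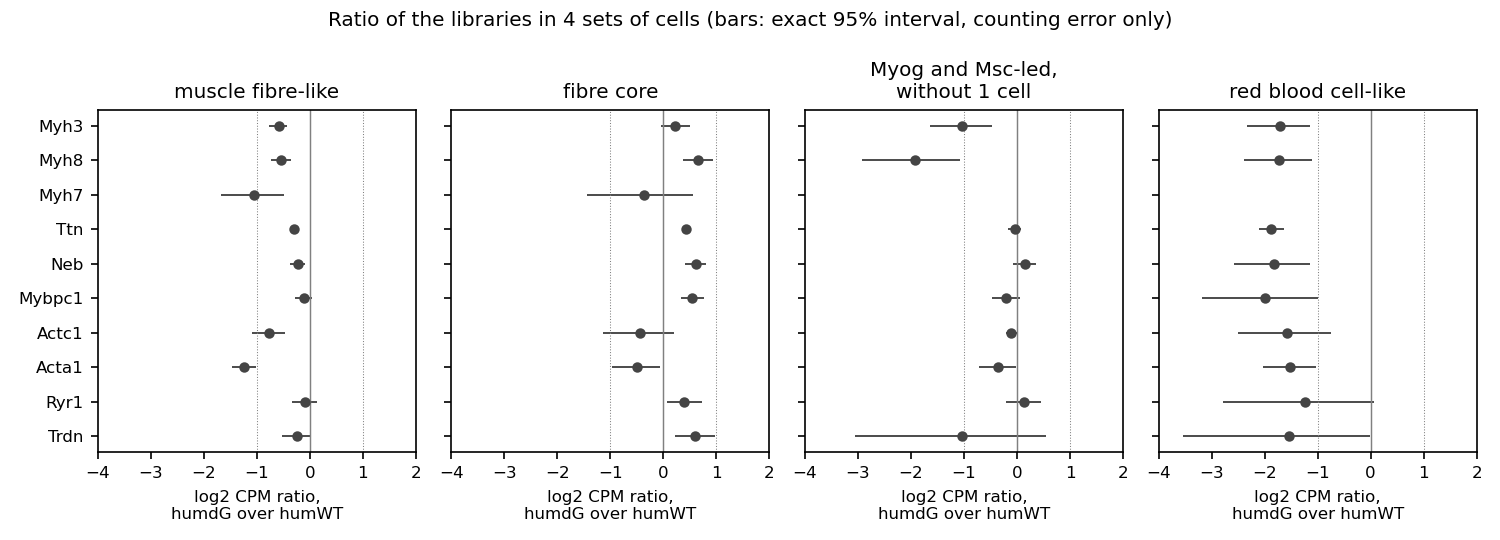
Log2 CPM ratio of humdG over humWT for each member in 4 sets of cells (fibre-like cluster, its core, the Myog-led cluster without 1 cell, and red blood cell-like barcodes; members with too few UMIs are left out), with exact 95% intervals for counting error. Members lie below 0 in the fibre-like cluster (Ttn -0.29, Acta1 -1.24), on both sides of 0 in the core (Neb 0.61, Acta1 -0.50), and all below 0 in red blood cell-like barcodes.

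By the planned definitions, 445 humWT and 163 humdG cells counted as precursors (at least 2 of 6 precursor genes), of which 268 and 119 lay in the Myog-led cluster. There the members had a median log2 ratio of -0.52 of humdG over humWT, beside 0.24 for all genes, and 4 of 10 were past 2-fold lower, where 5.72% of all genes were. In the 4 and 5 cells of the strict fibre definition 6 of 7 members were past 2-fold higher in humdG, where 37.8% of all genes were, and none was lower, where 6.99% were, and the cell rich in Acta1 is among those 5. The strict definition thus gives values for a handful of cells only.

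Other muscle genes from lists set for this tissue were counted in the same way, where 4.95% and 7.96% of all genes were past 2-fold over all other cells. Of genes of the thick filament and M band, 7 of 7 with at least 20 UMIs in the fibre-like cluster were past 2-fold in both libraries, among them Myom1 (5.99-fold in humWT and 12.7-fold in humdG) and Myom3 (9.70-fold and 14.7-fold). Of Z disc genes 9 of 11 were, among them Ldb3 (7.28-fold and 15.8-fold) and Des (2.60-fold and 3.74-fold). Of triad and calcium store genes 9 of 15 were, among them Srl (3.91-fold and 5.79-fold) and the calsequestrin Casq2 (5.57-fold and 14.0-fold), and not Atp2a2 (0.93-fold and 1.05-fold). Of thin filament genes 3 of 6 were, with the tropomyosin Tpm1 at 0.95-fold and 1.10-fold. The other myosin heavy chains with enough UMIs, Myh7b and Myh2, were both past 2-fold. Several of these genes could have shaped the clusters, so their enrichment is a description.

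In humdG relative to humWT the 12 fibre genes of the strict definition had a median log2 ratio of -0.99 in the fibre-like cluster, with 6 of 12 past 2-fold lower, where 4.08% of all genes were. Z disc genes had a median of -0.47 with 2 of 11 lower. Triad genes had a median of 0.09 with 1 of 15 lower, and thick filament and M band genes a median of 0.28 with 1 of 7 higher, where 8.51% of all genes were. Light chains outside the strict definition had a median of -1.50 with 2 of 2 lower. Acetylcholine receptor genes (-0.83), fusion and myogenic regulators (-0.62), other myosin heavy chains (-0.34) and thin filament genes (-0.25) had negative medians and none past 2-fold. In the Myog-led cluster 7 of 10 myogenic regulators and 5 of 5 acetylcholine receptor genes were past 2-fold over all other cells in both libraries. Of all genes 4.39% in humWT and 5.4% in humdG were. The regulator list includes Pax7, Myf5, Myod1 and Myog, which lead this cluster, so that count is a description. The regulators had a median ratio of -0.02 between the libraries there, and none was past 2-fold.

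Other clusters also held more member UMIs than red blood cell-like barcodes. A cluster led by Ntng2 and Cngb3 (139 and 157 cells) had 26.9 and 19.5 Ttn, 1.33 and 1.34 Ryr1 and 1.11 and 0.777 Trdn UMIs per cell, at median depths of 13073 and 14871 UMIs. This is above the fibre-like cluster per cell but below it on the CPM scale, where Ttn measured 1816 and 545, Ryr1 89.8 and 37.6 and Trdn 74.8 and 21.7 CPM. A cluster led by Tnmd and C1qtnf3, with 240 and 58 cells, had 15.7 Ttn UMIs per cell in humWT and 0.552 in humdG, and 4.29 and 0.5 Acta1 UMIs. In humWT the median cell of that cluster had 3 Ttn UMIs and the cell at the 90th percentile 48.1. The cluster led by Sncg and Gphn held 17.4% and 29.7% of all member UMIs and 4 of 4 and 3 of 5 of the cells that met the strict fibre definition. Whether these clusters hold muscle cells or doublets was not tested.

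Across the 44 combinations of 22 clusters and 2 libraries, members fell into groups with different companions. Myh3 and Myh8 had a Pearson r of 0.98 on log2 CPM, and Ttn and Myh3 0.97, while Actc1 and Trdn had 0.60 and Myh7 and Actc1 0.59. The genes most like Myh3 were Ldb3 (0.93), Atp1b4 (0.93) and Casq2 (0.91). Those most like Myh7 included Ldb3 (0.92) and Casq2 (0.88). Those most like Actc1 were Myog (0.94), the troponins Tnni2 (0.91) and Tnni1 (0.91), and Cox8b (0.91), with Mymk, a gene of myoblast fusion, at 0.90. The points share 2 libraries, their depth and their free RNA, and these values describe likeness only.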

How the data were processed

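The 2 droplet libraries of eye cup cells, 1 per genotype, were used. The deposited UMI counts per gene and barcode were made by the authors with Cell Ranger 7.1.0, and the submitters' processing notes also name mm10 and Seurat 4.1.1. The annotation and the use of intronic reads are not given in the sources used here. The files held 17421 and 19565 barcodes with 129135207 and 114319529 UMIs, more barcodes than the cells the study states. A barcode was kept when it had over 500 genes and its mitochondrial share was below 15%. Clusters were made with Seurat 5.3.0 (2000 variable genes without the members, canonical correlation over 20 dimensions, 30 components, resolution 0.5) and called X-like from at least 3 raised markers, and otherwise by their leading genes. Clusters that met this rule were also called by their leading genes where markers of another class tied or led, as in the Myog-led cluster. UMIs were summed per set of cells and library and scaled to CPM over all genes, and intervals were computed with scipy 1.17.1 (exact Poisson, Clopper-Pearson and conditional binomial, at 95%). A gene entered ratios from 20 UMIs summed over the libraries. Scrublet, run through scanpy 1.11.5, marked under 0.5% of cells, which is no working call, so no doublets were removed. The planned fibre definition took 9 cells, so the fibre-like and Myog-led clusters and the core were used instead, a choice made after seeing the data. Named genes were the members, up to 4 genes with the most UMIs per list, and the genes with the highest Pearson r. Members and lists were chosen with earlier results of these data known. Of the 102 barcodes found in both libraries 93 were kept. The scripts were tested on simulated counts. A gene of the lists is not reported here by name.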

Additional observations from a re-analysis of the deposited data

Results flagged for a closer look

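The members Acta1 and Neb had ratios of humdG over humWT that pointed opposite ways in the 2 muscle clusters. Acta1 had a log2 CPM ratio of -1.24 in the fibre-like cluster and 2.71 in the Myog-led cluster, and without 1 humdG cell the latter was -0.36, the same way as the former. Neb had ratios of -0.23 and 0.31, and without that cell the latter was 0.14. With 1 library per genotype these differences were not tested.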

How the results depend on the processing

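No paired analysis was possible because each genotype is 1 library, and for the same reason no library could be left out. Depth limits Myh7, Ryr1 and Trdn most. The strict fibre share of cells, 0.0235% in humWT and 0.0261% in humdG, was 0.123% and 0.0836% with a limit of 1% of UMIs, 0% and 0.00523% with 5%, and 9.11% and 3.61% by cluster. At resolution 1.0 the fibre-like cluster held 1554 and 984 cells in place of 1551 and 690. The precursor share, 2.62% and 0.852%, was 1.75% and 0.643% with at least 3 of 6 genes and 1.65% and 0.638% by cluster, and 2.24% in humWT without cells over 30000 UMIs. The share of member UMIs in strict fibres and precursors, 11.5% and 12.6%, was 12.1% and 13.0% with the 1% limit, 8.63% and 9.58% with at least 3 of 6 genes, 6.29% and 8.71% without cells over 30000 UMIs, and 27.0% and 23.3% by cluster. It was 11.8% in humWT with mitochondrial UMIs under 10% and 13.0% in humdG without the 5% highest Scrublet scores. The median log2 ratio of members in strict fibres, 1.85, was -0.42 by cluster, where Myh3 (-0.59), Myh8 (-0.55), Ttn (-0.29), Neb (-0.23), Mybpc1 (-0.12) and Acta1 (-1.24) turned direction. Myh3 was at -1.34 with the 1% limit and Mybpc1 at -0.65 as a mean over cells. In precursors the median, -0.52, was 0.14 by cluster, where Myh3 (0.35), Myh8 (0.16) and Acta1 (2.71) turned direction, and 0.16 with the red blood cell-like profile subtracted, where Myh3 was at 0.97. The share of all genes past 2-fold in precursors, 20.4%, was 15.3% with at least 100 UMIs and 31.6% with at least 1. These medians include members under 20 UMIs. The following were chosen after seeing the data. The fibre-like median of -0.42 was 0.42 in the core. The Myog-led median of 0.14 was -0.17 at resolution 1.0, -0.29 without the cell rich in Acta1 (Acta1 -0.36), -0.18 as a mean over cells, and 0.49 with the red blood cell-like profile subtracted. Over the 9 members with at least 20 UMIs it was 0.16, and -0.21 without that cell. Apart from resolution, subtraction and cell definition, whose make-up differs by construction, the cause was not tested. Of the remaining values of comparisons 74 stayed within the limits set for them, and of those of single members 311 did and 108 left them without changing direction.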

Other observations

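Some members were higher per barcode outside muscle than in red blood cell-like barcodes by more than 2-fold in both libraries. The share of all genes that were so in these clusters was not counted. In the fibre-like cluster 71.8% (humWT) and 87.3% (humdG) of all genes were past 2-fold over red blood cell-like barcodes on the CPM scale. Myh7 had 0.0771 UMIs per barcode in RPE-like cells of humWT and 0.0599 in humdG, from 43 and 26 UMIs, against 0.0250 and 0.00415. For Myh7 the red blood cell-like value was the lowest of the 18 clusters in humWT, whose median was 0.0483 and highest 0.0792, and rests on 1 UMI in humdG. On the CPM scale Myh7 in RPE-like cells was 9.90 and 10.2, against 5.70 and 0.902. The highest of the 18 clusters in humWT was at 19.2 CPM, while in humdG the RPE-like cluster was itself the highest. Mybpc1 had 0.425 and 0.2503 UMIs per barcode in neurogenic-like cells, against 0.143 and 0.0373, or 48.2 and 28.0 CPM against 32.5 and 8.12 CPM. Acta1 had 1.14 and 0.514 UMIs per barcode in mesenchyme-like cells, against 0.464 and 0.170. Those cells were deeper (medians of 15607 and 16598 against 3985 and 4266 UMIs), and on the CPM scale the direction turned, at 69.6 and 29.4 against 106 and 37.0 CPM. Ryr1 had 0.146 and 0.0646 UMIs per barcode in amacrine and horizontal-like cells, against 0.0559 and 0.0249, or 20.7 and 8.62 CPM against 12.7 and 5.41 CPM. These cells are not muscle by their markers, and whether they transcribe the genes was not tested.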
